A study of Rattus norvegicus with 24 samples.

Results

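Stretches of the rat genome in which no INO80 peak was called after cocaine are described here as 1-Mb windows. Chromosomes 1 to 20 and X were cut into consecutive 1-Mb windows from their first base up to the last peak end of either list, which gave 2786 windows. The 272 windows without the summit of a cocaine peak, the base at which the ChIP signal of a peak is highest, were kept and are called empty windows. They made up 9.76% of all windows and 272 of 2776 Mb. The windows were thus chosen by the cocaine peak calls, and their number, place and cocaine neighbours are given as a description with no test. Empty means that no position passed the peak caller's threshold and does not mean that INO80 was absent.

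INO80 is the catalytic ATPase of a multi-subunit remodelling complex that slides and spaces nucleosomes and exchanges histone variants. It is known for work at promoters, at replication forks and at DNA breaks. ChIP-seq of such a remodeller commonly gives peaks in accessible, gene-rich chromatin, so that peaks are unevenly spread along chromosomes. The nucleus accumbens is a ventral striatal region that receives dopamine input and takes part in reward seeking.

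Rats had been trained to self-administer cocaine with extended access, and tissue was taken after 30 days of withdrawal. Labels of the saline samples repeat this cocaine protocol, and the sources used here give no strain, sex or age. The nucleus accumbens libraries fall into 4 groups, which are INO80 ChIP after cocaine, input DNA after cocaine, INO80 ChIP after saline and input DNA after saline. A group has 3 samples by number, each sequenced in 2 runs. The authors called 1 peak list per treatment from all 3 ChIP samples against all 3 inputs, so replicate error is unknown and the lists could not be set against the variation among samples. Peak calling used 43489910 filtered ChIP tags for cocaine and 37905014 for saline. The windows held 71280 cocaine and 2298 saline summits. The lowest pileup, the number of ChIP fragments stacked at a summit, was 7 among cocaine peaks at the lowest possible local background, so lower summits in the empty windows would not be listed.

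Occupied windows ranged from 1 to 286 cocaine summits, and the median over all windows was 13, with quartiles of 4 and 31. The empty class was larger than any neighbouring class. Just outside the limit, 192 windows (6.89%) held exactly 1 cocaine summit, 137 held 2, 95 held 3 and 102 held 4. The lone peaks of the 192 windows were slightly lower and shorter than the rest of the list. Their median pileup was 17 and their median length 65 bp, against 19 and 103 bp over all cocaine peaks of these chromosomes. Their median fold over local input, a value of the authors' peak caller, was 6.74 against 7.74. Only 7 of the 192 (3.65%, Wilson 95% interval 1.78 to 7.33) stood on deep input of at least 10 times the genome-wide level, against 3.44% of all cocaine peaks. Intervals of shares and densities cover counting error only, and neighbouring windows and peaks are not independent.

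Empty windows were found on all 21 chromosomes, most often on chromosome X and least often on chromosome 17. Chromosome X had 26 empty windows of 160 (16.25%, 11.3 to 22.7). Chromosome 13 had 17 of 114 (14.9%, 9.52 to 22.6) and chromosome 9 had 18 of 122 (14.8%, 9.54 to 22.1). At the other end, chromosome 17 had 3 of 91 (3.30%, 1.13 to 9.25), chromosome 20 had 3 of 57 (5.26%, 1.81 to 14.4) and chromosome 12 had 3 of 53 (5.66%, 1.94 to 15.4). The highest number, 33 of 267, lay on chromosome 2. The intervals of most pairs of chromosomes overlapped. The exceptions were chromosome 17 against chromosomes X, 13 and 9, and chromosome 1 (7.07%, 4.62 to 10.7) against chromosome X.

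**Figure D1:**
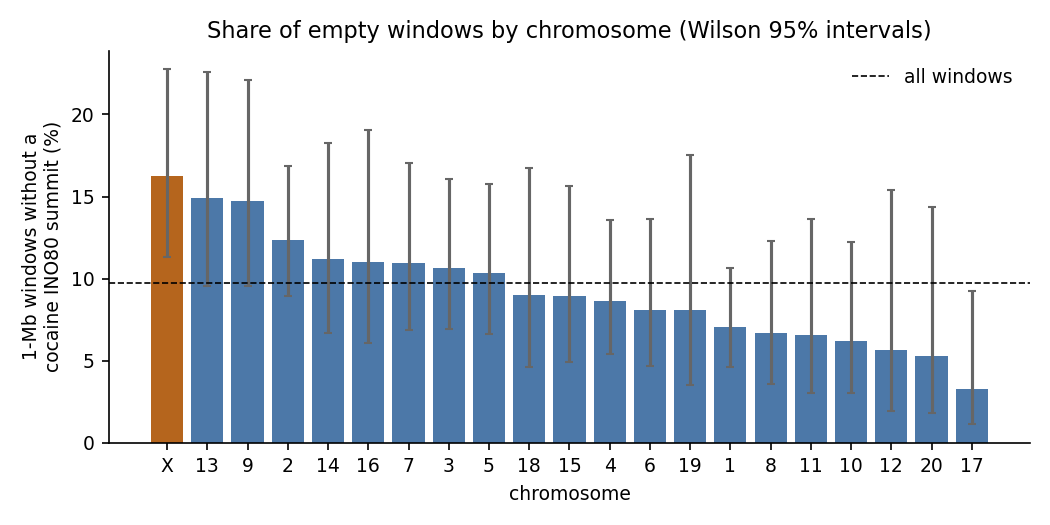
Share of 1-Mb windows without a cocaine INO80 summit on each chromosome, in percent on the vertical axis, ordered from highest to lowest, with Wilson 95% intervals as error bars and chromosome X in brown. The dashed line is the share over all windows, 9.76%, and the shares run from 16.25% on X to 3.30% on chromosome 17.

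The overall density of cocaine peaks only partly ordered the chromosomes. Across the 21 chromosomes, Spearman's rho between the share of empty windows and cocaine summits per Mb was -0.42, and with the median number of summits per window it was -0.62. Both measures come from the same list. Chromosome 10 had the highest density, 54.1 summits per Mb, and 7 of its 113 windows (6.19%) were empty. Chromosome 17 had 20.3 summits per Mb, below most chromosomes, and yet had the lowest share of empty windows. Chromosome 13, with a similar 19.8 summits per Mb, had 14.9%. Peaks of chromosome 17 were therefore spread over more of its windows, with a median of 14 per window against 10.5 on chromosome 13. Chromosome X had the lowest median, 7 per window. It also differed in its input: 58.6% of its peaks under 10 times the genome-wide background had a local background at the genome-wide floor, the lowest that the caller uses, against 41.4% on the autosomes. The part of this in the share of empty windows on chromosome X was not tested. Without chromosome X, 246 of 2626 windows (9.37%) were empty.

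Empty windows were found along the whole length of chromosomes. None of the 21 first windows was empty, a number too small to set against the overall share. The last windows could rarely be empty, since a chromosome was taken to end at its last peak. Over 5 equal parts of each chromosome from start to end, the share of empty windows was 9.34%, 11.1%, 11.1%, 8.08% and 9.16%, with no steady trend.

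Within chromosomes, the 3 longest stretches of occupied windows were chosen after their values were seen and are given as a description. By this choice, all empty windows of such a chromosome lie outside its stretch. Densities inside and outside come from the same cocaine list as the choice. Whether stretches of this length exceed those of randomly placed empty windows was not tested. Chromosome 5 had the longest stretch without an empty window, 71 windows in a row at chr5:103000001-173671455 (rn6), which held 2980 cocaine summits at 42.2 per Mb. All 18 empty windows of this chromosome lay in its other 103 windows, which together had a density of 13.7 per Mb. The first of the 18 began at 7000001 and the last ended at 103000000. Chromosome 15 showed the opposite orientation. Its first 53 windows (chr15:1-53000000) were all occupied, at 27.7 summits per Mb, and its 10 empty windows lay among the following 59, at 9.05 per Mb. On chromosome 1, the 60 windows of chr1:50000001-110000000 were all occupied at 49.7 per Mb, and 20 of the other 223 windows (8.97%) were empty.

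The 272 empty windows formed 226 runs of consecutive windows, and none was longer than 3 Mb. A single empty window made up 186 runs, 34 runs had 2 windows and 6 runs had 3. Runs of 2 or more lay on 14 chromosomes. Chromosome 13 had 17 empty windows in 17 separate runs, each parted from the next by at least 1 occupied window. Chromosome 9, with a nearly equal share, had 18 windows in 12 runs.

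The distance between the last cocaine summit before a run and the first after it gives the stretch without a peak independently of where the windows start. This distance had a median of 1.79 Mb for runs of 1 window (1.13 to 2.89), 2.66 Mb for runs of 2 (2.06 to 3.67) and 3.54 Mb for runs of 3 (3.39 to 4.30). The ranges of successive run lengths overlapped. The increase with run length is built in, since a run of more whole windows needs a longer distance. For scale, the median distance between neighbouring cocaine summits was 1.65 kb. In all, 449 distances between neighbouring summits were at least 1 Mb, 90 were at least 2 Mb and 13 at least 3 Mb. Together they covered 722 Mb, 26.0% of the length studied. Only 226 of the 449 contain a whole window of the grid, and the other 223, of up to 1.86 Mb, do not.

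**Figure D2:**
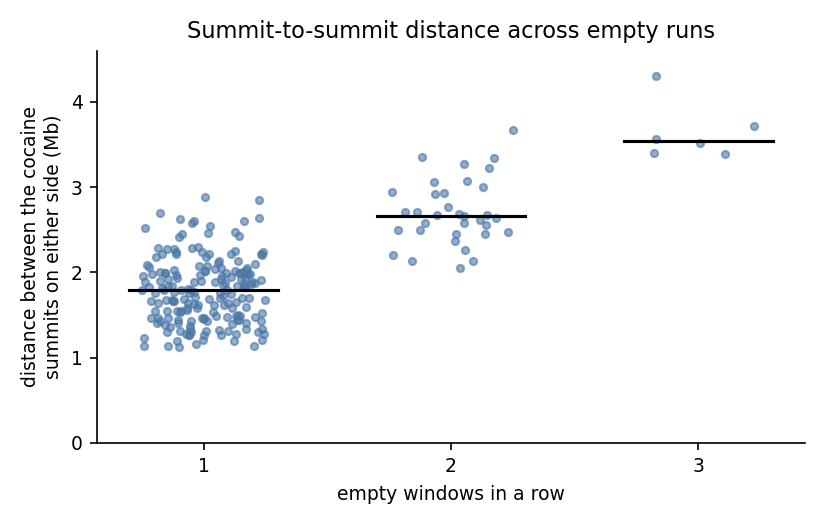
Distance in Mb between the cocaine summits on either side of each of the 226 runs, by the number of empty windows in the run. Points are runs, with random sideways shift for visibility, and bars are medians (1.79, 2.66 and 3.54 Mb), and the highest point is the 4.30 Mb stretch on chromosome 9.

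The longest stretch lay on chromosome 9. No cocaine summit was called over 4.30 Mb around chr9:33000001-36000000, from a peak of fold 10.6 at 32022477 to a peak of fold 5.98 at 36323409. The window before it held 2 cocaine summits and the window after it 9, and the nearest saline summit was 14.9 Mb away. Chromosome X had a pair of runs of 3. The run chrX:101000001-104000000 spanned 3.72 Mb between summits and passed from a window of 3 summits to a window of 41. The run chrX:148000001-151000000 spanned 3.52 Mb, between windows of 1 and 6 summits.

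The other runs of 3 windows differed mainly in what stood beside them. The run chr1:270000001-273000000 spanned 3.57 Mb and ended at a tall peak of pileup 57 and fold 18.3. The run chr7:88000001-91000000 spanned 3.40 Mb, between windows of 2 and 21 summits. The run chr3:18000001-21000000 spanned 3.39 Mb between windows of 10 and 66 summits, and a saline summit lay 0.508 Mb from it. Its window of 66 was the fullest beside any of the 6.

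Next in order were the runs of 2 windows with the widest spacing. The first was chr2:72000001-74000000, with 3.67 Mb between summits, which is more than in 4 of the 6 longer runs. It was followed by chr5:41000001-43000000 with 3.35 Mb, chrX:97000001-99000000 with 3.34 Mb and chr4:19000001-21000000 with 3.27 Mb. The chromosome X run ended at a peak of pileup 61 and fold 11.7, alone in its window. Each of these 4 runs was preceded by a window of 2 summits.

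Windows directly beside empty ones were sparse, and the number of cocaine summits was higher farther away. The 419 occupied windows directly beside an empty window held a median of 7 cocaine summits, with quartiles of 2 and 17, against 16 over all occupied windows. At 2 and at 3 windows from the nearest empty window the median was 14, at 4 it was 18, at 5 it was 17, at 7 it was 22 and at 10 it was 27. In the 560 windows more than 10 windows away it was 20, so that the increase did not continue. Exactly 1 summit was found in 67 of the 419 adjacent windows (16.0%), against 7.64% of all occupied windows. Lower counts beside empty windows are partly built into the choice, since a peak-free stretch of over 1 Mb usually extends into the windows around it. The median distance from the edge of a run to the next cocaine summit was 0.330 Mb, and 76 of 452 edges had a summit within 100 kb.

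**Figure D3:**
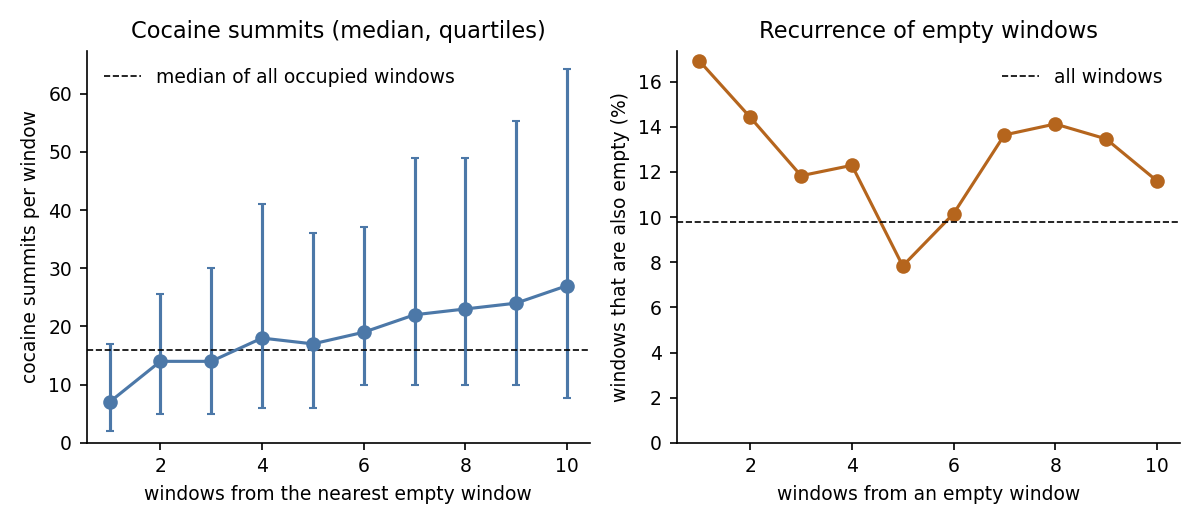
Left, cocaine summits per occupied window (median, with quartiles as error bars) by distance in windows from the nearest empty window, with 7 beside an empty window, 14 at 3 windows and 27 at 10 windows (windows farther away, with a median of 20, are not drawn), and with the median of all occupied windows, 16, dashed. Right, percent of windows at each distance from an empty window that are themselves empty, 16.9% at 1 window against 9.76% over all windows (dashed).

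Among distances of 1 to 10 windows from an empty window, the share of windows that were also empty was highest directly beside it, with no steady fall farther away. Of the windows directly beside an empty window, 16.9% were empty too, and at 2 windows the share was 14.4%. It fell to 7.84% at 5 windows and was between 10.2% and 14.1% from 6 to 10 windows, against 9.76% over all windows. The 10-Mb stretch richest in empty windows, chrX:94000001-104000000, held 6 of them and 14 cocaine summits in total, against a median of 186 summits per 10 Mb. Stretches with 5 empty windows lay at chr5:37000001-47000000 (14 summits), chr13:57000001-67000000 (20 summits) and chr2:245000001-255000000 (71 summits). None of these 4 stretches held a saline summit, and the median over all 10-Mb stretches was 1. These stretches were chosen after their values were seen.

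Some empty windows bordered crowded ones, and the examples named were chosen after their values were seen. A window of at least 50 cocaine summits adjoined 14 of the 226 runs. The fullest, with 109 summits, stood directly before the empty window chr2:212000001-213000000, which had 6 summits on its other side. At chr3:174000001-175000000 the counts on the 2 sides were 11 and 94, and at chr12:26000001-28000000 they were 93 and 27. Both sides held at least 20 summits at 11 runs, and both sides held 4 or fewer at 40 runs. The other runs met neither of these limits. Of the 419 occupied windows beside an empty one, 15 held at least 50 cocaine summits and 167 held 1 to 4. Over all 2514 occupied windows, 403 held at least 50 and 526 held 1 to 4.

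The peaks that bound the runs had ordinary input and slightly lower values than the list as a whole. The 442 different cocaine peaks next to a run had a median pileup of 16.5 (quartiles 12 and 25.75) and a median fold of 6.70, against 19 and 7.74 over all cocaine peaks. The quartile ranges of fold overlapped, at 5.44 to 9.20 and 5.98 to 10.4. Their local background was at the genome-wide floor in 39.8% (35.4 to 44.5) against 40.6% of all peaks, and at least 10 times the genome-wide level in 10 of 442 (2.26%, 1.23 to 4.11) against 3.44%. For both measures of input, the share over all cocaine peaks lay inside the interval of the bounding peaks. Moving outward from a run, the next cocaine summit beyond the first lay a median of 10.1 kb away, and within 10 kb in 50% of cases, against 76.1% between all neighbouring summits. The bounding peak of highest fold, chosen after its values were seen, was on chromosome X at chrX:55635893-55635987, with pileup 49 and fold 23.0.

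A single cocaine peak parted neighbouring runs at 10 places. These isolated peaks lay on 6 chromosomes, and chromosome 13 carried 5 of them. The widest such stretch was on chromosome 6, where the peak chr6:140816665-140816782, with pileup 27 and fold 10.3, was the only one in 5.10 Mb. On chromosome 13, the peak chr13:65028171-65028226 (pileup 16, fold 7.44) stood alone in 4.27 Mb and chr13:12298566-12298641 (pileup 25, fold 8.27) in 4.24 Mb. Another, chr13:58717904-58717957, had a pileup of 50 but a fold of only 2.46, because the input there reached 16.8 times its genome-wide level. It was the only one of the 10 on such deep input. Pileups of the 10 ranged from 11 to 50 with a median of 21.5, lengths from 54 to 118 bp with a median of 56 bp, and folds from 2.46 to 10.5. None of the 10 overlapped a saline peak. Such overlap was rare over the whole list too, with 1833 saline peaks overlapping a cocaine peak against 71280 cocaine summits. The 10 isolated peaks were chosen after their values were seen.

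None of the 272 empty windows held the summit of a saline peak. The saline samples took no part in choosing the windows, so this is a separate measurement, made on 1 pooled list. Taking 3 counts as the most that a count of 0 allows, the share is at most 1.10% of windows and the density at most 0.0110 saline peaks per Mb. The two-sided 95% intervals used below to compare classes of windows are wider and reach 1.39% and 0.0136 per Mb. Over all windows, 380 of 2786 (13.6%) held a saline summit, so that lacking one was common. The 2514 occupied windows held 0.918 saline peaks per Mb, but 45.2% of all saline summits lay in the 10 fullest windows, and 1 window had 212. Counting saline peaks less than 10 kb apart once left 677 groups, or 0.270 per Mb in occupied windows.

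The share of windows with a saline summit followed the number of cocaine summits. It was 11 of 192 (5.73%, 3.23 to 9.97) in windows with 1 cocaine summit and 21 of 334 (6.29%, 4.15 to 9.42) with 2 to 4. It was 8.48% (6.10 to 11.7) with 5 to 9, 8.89% (6.71 to 11.7) with 10 to 19, 16.8% (14.2 to 19.8) with 20 to 49 and 38.2% (33.6 to 43.0) with 50 or more. Neighbouring classes from 1 to 19 summits overlapped in their intervals. The interval of the empty windows, 0 to 1.39%, did not reach that of windows with 1 summit. Saline peaks of low local background, under 10 times the genome-wide level, numbered 0 in the empty windows and 19 in the 526 windows with 1 to 4 cocaine summits (0.0365 per Mb, 0.0220 to 0.0570). Saline peaks of deep input also numbered 0 and 19. No p-value is given, because each treatment has 1 list.

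**Figure D4:**
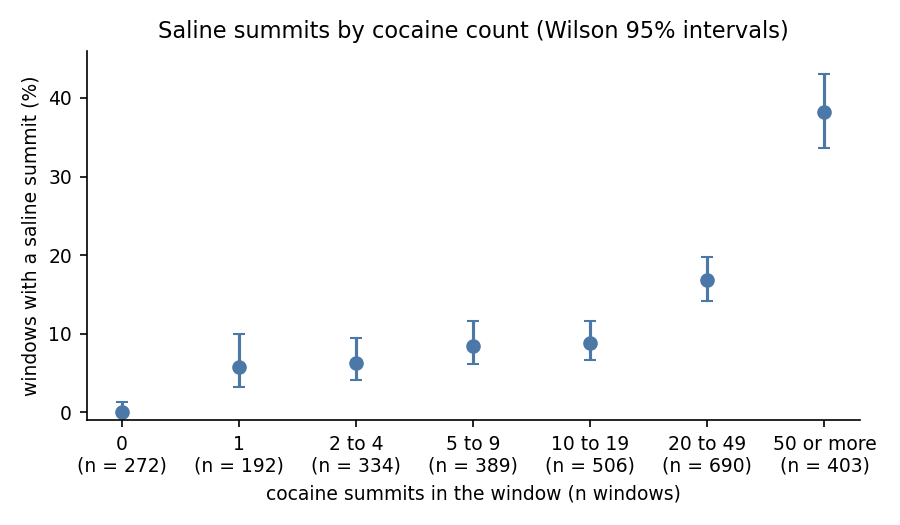
Percent of 1-Mb windows holding at least 1 saline summit, by the number of cocaine summits in the window, with Wilson 95% intervals as error bars and the number of windows in each class below. The share is 0 in the 272 empty windows, between 5.73% and 8.89% in windows of 1 to 19 cocaine summits and 38.2% in windows of 50 or more.

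Part of this 0 follows from the overlap of the lists. Of the 2298 saline peaks, 1833 shared at least 1 bp with a cocaine peak, and a saline peak over a cocaine summit cannot lie in an empty window. The 465 saline peaks without such an overlap were not excluded in this way, but one close to a cocaine summit could lie only near an edge of an empty window. They too lay near cocaine peaks, at a median distance of 1.18 kb from the nearest cocaine summit, with 356 of the 465 (76.6%) within 10 kb. Only 35 were more than 100 kb away and 1 more than 500 kb. Just 108 of the 465 had a local background under 10 times the genome-wide level, but 32 of the 35 did. The nearness was thus mainly that of saline peaks on deep input. In windows with 1 to 4 cocaine summits, 17 saline peaks had no overlap, 0.0326 per Mb (0.0190 to 0.0522), against an upper interval limit of 0.0136 per Mb in the empty windows. This contrast is partly built in too, since peaks close to a cocaine summit have little room in empty windows. It does not show that saline peaks far from cocaine peaks were rarer in empty windows.

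The 0 also depended on where the windows start. With all windows moved by 500 kb, 269 were empty and 2 of them held a saline summit. These were the peaks chr1:45488168-45488230, in a stretch where the nearest cocaine summit was 435 kb away, and chr13:105529800-105529860, 368 kb from the nearest. Both reached pileup 8 and fold 4.53 at the floor of local background, where the lowest listed saline pileup was 7. In windows of 500 kb, 10 of 1347 empty windows held a saline summit. Over the 449 stretches of at least 1 Mb between cocaine summits, which depend on no grid, 21 saline summits were found in 17 stretches, or 0.0291 per Mb (0.0180 to 0.0445). Of these 21, 7 overlapped a bounding cocaine peak and 9 lay more than 100 kb from any cocaine summit.

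Those 9 saline peaks lay 185 to 544 kb from the nearest cocaine summit, and all had a local background under 10 times the genome-wide level. Their pileups ranged from 8 to 40 and their folds from 3.55 to 8.56. The peak with the pileup of 40 stood just under that limit, at 9.93 times the genome-wide level. The farthest, chr13:19902000-19902090, lay 544 kb from the nearest cocaine summit with pileup 10 and fold 5.54. The highest fold belonged to chr3:116097646-116097697, a peak of 52 bp with a pileup of 16, 238 kb from a cocaine summit. The peak chr16:64947764-64947820, with a pileup of 24, came within 0.0522 Mb of an empty window. These peaks were chosen after their values were seen.

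Saline peaks were distant from most runs. The nearest saline summit lay a median of 4.08 Mb from the edge of a run, with a range of 0.0289 to 44.4 Mb, and it lay within 1 Mb at 33 of the 226 runs. Only 380 of all 2786 windows (13.6%) held a saline summit, and the same distance is not given for other windows. Such distances are therefore not shown to be particular to empty windows. Within 100 kb of an empty window there were 5 saline peaks. The closest 3, chosen after their values were seen, were on chromosome 3, between 15969871 and 15971167, beside the empty window chr3:16000001-17000000. They had pileups of 66 to 73 on local backgrounds of 16.0 to 22.9 times the genome-wide level, and each overlapped a cocaine peak.

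Occupied windows were compared within classes of cocaine summits, which match the number of summits only roughly. Windows beside an empty window held at most 109 cocaine summits, while those elsewhere held up to 286. Occupied windows beside an empty window held a saline summit less often than others of their class, except with 5 to 9 summits, but with overlapping intervals. Among windows with 1 to 4 cocaine summits, 6 of 167 beside an empty window (3.59%, 1.66 to 7.62) and 26 of 359 elsewhere (7.24%, 4.99 to 10.4) held a saline summit. With 5 to 9 summits the shares were 11 of 83 (13.3%, 7.56 to 22.2) and 22 of 306 (7.19%, 4.80 to 10.6), in the opposite order. With 10 to 19 summits they were 5.00% (1.96 to 12.2) and 9.62% (7.17 to 12.8). With 20 to 49 summits they were 7 of 74 (9.46%, 4.66 to 18.3) and 109 of 616 (17.7%, 14.9 to 20.9). With 50 or more, 4 of 15 (26.7%, 10.9 to 52.0) and 150 of 388 (38.7%, 33.9 to 43.6) held a saline summit. The intervals of these shares overlapped in each class.

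Densities of saline peaks, which several peaks in 1 window can set, differed more in the classes of 5 to 9 and of 50 or more cocaine summits. With 5 to 9 cocaine summits there were 0.325 saline peaks per Mb (0.214 to 0.473) beside an empty window and 0.105 (0.0715 to 0.148) elsewhere. With 50 or more the order was reversed, at 1.27 (0.763 to 1.98) and 3.58 (3.39 to 3.77). In both classes the intervals did not overlap, but they treat clustered peaks as independent and are therefore too narrow. In the classes of 1 to 4, 10 to 19 and 20 to 49 cocaine summits, the intervals of the densities overlapped.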

How the data were processed

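Per the file headers, the authors ran MACS 2.0.10.20131216 at a q-value cutoff of 0.05 on the pooled 3 ChIP alignments of each treatment against its pooled 3 inputs. Coordinates are on rn6 (submitters' processing notes). No aligner is named in the sources used here. The deposited pileup is a signal (ChIP fragments at the summit), the deposited fold a ratio of pileup plus 1 to local input background plus 1, and the deposited −log10 p-value comes from the same comparison. Lengths and summit positions are in bp, per the file headers; the −log10 q-value column deposited by the authors was not used. Removal of duplicate reads limits pileups in deep regions.

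Summits were counted in 1-Mb windows, and the local background implied by pileup and fold was expressed relative to the genome-wide level of 1.17 fragments for cocaine and 0.986 for saline. Shares carry Wilson intervals and densities exact Poisson intervals, both 95%, for counting error only. The step was tested on simulated data. Regions named are the 10 longest runs, the chromosomes with the 3 highest and 3 lowest shares, and others marked as chosen after their values were seen; no empty window held a saline peak to name. The windows and all rules were chosen with earlier results of these data known. Alternatives were other window sizes and starts, stricter or low-background peaks, any overlapping base, no last windows and joined saline peaks. Genes, sequence, assembly gaps and mappability at these windows were not analysed here, since the gene table at hand is of another assembly. Chromosome Y and unplaced scaffolds were left out. Python 3.11.15, numpy 2.4.6, pandas 2.3.3, scipy 1.17.1, statsmodels 0.14.6 and matplotlib 3.10.9 were used.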

Additional observations from a re-analysis of the deposited data

How the results depend on the processing

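Counts of empty windows depend on window size and peak threshold by construction. Windows of 500 kb gave 1347 empty windows, 10 of them with a saline summit, and 0.0163 and 1.09 saline peaks per Mb in empty and occupied windows. Windows of 2 Mb gave 18 empty windows, none with a saline summit, and 0.839 per Mb in occupied ones. With cocaine peaks at or above the list's median −log10 p of 15.03, 563 windows were empty, 23 of them held a saline summit, and the densities were 0.160 and 0.997 per Mb. Of the 90 saline peaks then inside, 73 stood on deep input and 51 overlapped a weaker cocaine peak. With cocaine peaks of low background alone, 282 windows were empty, 9 held a saline summit, the density was 0.117 per Mb, and 30 of the 33 saline peaks inside stood on deep input. Moving the windows by 500 kb gave 269 empty windows, 2 with a saline summit. Counting any base of a peak and leaving out the last window of each chromosome left 272 empty windows, none with a saline peak. Stricter saline peaks gave 0.458 per Mb in occupied windows, and joined saline peaks gave 0.270. No paired analysis was possible because the authors pooled the 3 samples of each treatment into 1 peak list, and for the same reason no sample could be left out. Depth is known for the pools only, and a window without a peak is not shown to lack INO80.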
